A study of Homo sapiens with 6 samples.

Results

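MMAB and MVK are neighbouring human genes that start close to each other on opposite strands, and RNA from both was measured in Huh7 cells by 7 probe sets of a whole-genome array. All probe sets whose annotation gives MMAB (3 probe sets) or MVK (4 probe sets) as the gene symbol were taken, which makes 2 of 21299 genes and 7 of 54613 probe sets. No probe set named either gene together with another symbol. Huh7 is an established human liver cancer cell line, grown here in DMEM with 10% FBS. For 24 h the cells received vehicle (control), native LDL at 120 µg/ml (nLDL, a cholesterol load) or 5 µM of a statin (to lower their cholesterol), with 2 arrays in each of the 3 groups. Every group is the same cell line in serum-containing medium, so the control cells also had lipoprotein from serum. Values are log2 values made by robust multi-array averaging (RMA), in which a difference of 1 is a doubling.

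MVK encodes mevalonate kinase, which phosphorylates mevalonate on the route from acetyl-CoA to cholesterol and to the isoprenoids that are attached to proteins. Statins block the step that makes mevalonate. MMAB encodes cob(I)alamin adenosyltransferase, a mitochondrial enzyme that turns vitamin B12 into adenosylcobalamin, the cofactor with which methylmalonyl-CoA mutase carries propionate carbon into the citric acid cycle. The enzymes belong to different pathways. Genes of cholesterol synthesis are switched on by the transcription factor SREBP2 when sterols are low, usually together with NF-Y and SP1, factors that bind the CCAAT and GC boxes of many promoters.

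In the RefSeq annotation of GRCh38.p14, MMAB lies on the minus strand of chromosome 12, from 109553715 to 109573504, and MVK on the plus strand from 109573272 to 109598125. The gene models overlap by 233 bases, and where the array's probes lie in the transcripts was not used here. The start sites used in the promoter table, 109573504 for MMAB and 109573794 for MVK, are 290 bases apart and point away from each other. The promoter of each gene, from 250 bases before its start site to 50 bases after it, is shown because the pair shares most of it: MMAB at chr12:109573455-109573754 on the minus strand and MVK at chr12:109573544-109573843 on the plus strand. Both are RefSeq sequence, written 5′ to 3′ on the strand of the gene. Capitals mark a CCAAT box, a GGGCGG box or the core TCACNCCA on either strand, and where a GGGCGG match adjoins the TCACNCCA match the capitals run together.
MMAB: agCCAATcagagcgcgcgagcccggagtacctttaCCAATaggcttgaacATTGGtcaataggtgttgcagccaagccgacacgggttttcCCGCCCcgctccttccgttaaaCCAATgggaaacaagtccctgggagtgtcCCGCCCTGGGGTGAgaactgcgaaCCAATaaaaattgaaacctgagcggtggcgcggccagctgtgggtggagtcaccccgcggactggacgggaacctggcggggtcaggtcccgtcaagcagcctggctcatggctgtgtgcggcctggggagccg
MVK: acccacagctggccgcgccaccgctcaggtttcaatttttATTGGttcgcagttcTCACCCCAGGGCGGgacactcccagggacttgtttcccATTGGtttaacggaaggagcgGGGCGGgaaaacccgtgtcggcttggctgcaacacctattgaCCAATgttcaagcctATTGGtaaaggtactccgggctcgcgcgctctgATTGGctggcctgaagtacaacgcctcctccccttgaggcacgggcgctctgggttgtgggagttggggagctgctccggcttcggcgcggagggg
The windows share 211 bases, over which one is the reverse complement of the other. All marked letters lie in this shared stretch.

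The CCAAT box was found 5 times in each window, and these were the same 5 places. At least 1 CCAAT box stood in 35.7% of 27305 promoter windows of the same length, and 5 or more stood in 0.403% of them. GGGCGG, the box bound by SP1, was found 2 times, and 26.7% of all windows hold 2 or more. TCACNCCA, the core of the sterol regulatory element, was found 1 time, 95 bases from the MMAB start site, directly beside a GGGCGG box, and 3.93% of all windows hold it. The longer form TCACNCCAC was not found in these windows, and 1.15% of all windows hold it. Of the 8 promoters in the table that belong to the mevalonate steps, MVK included, 4 had a CCAAT box and 1, that of MVK itself, had TCACNCCA, and of 10 promoters of the steps from squalene to cholesterol, 8 and 1 had them. These matches describe letters only, and no binding was measured on these arrays.

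**Figure D1:**
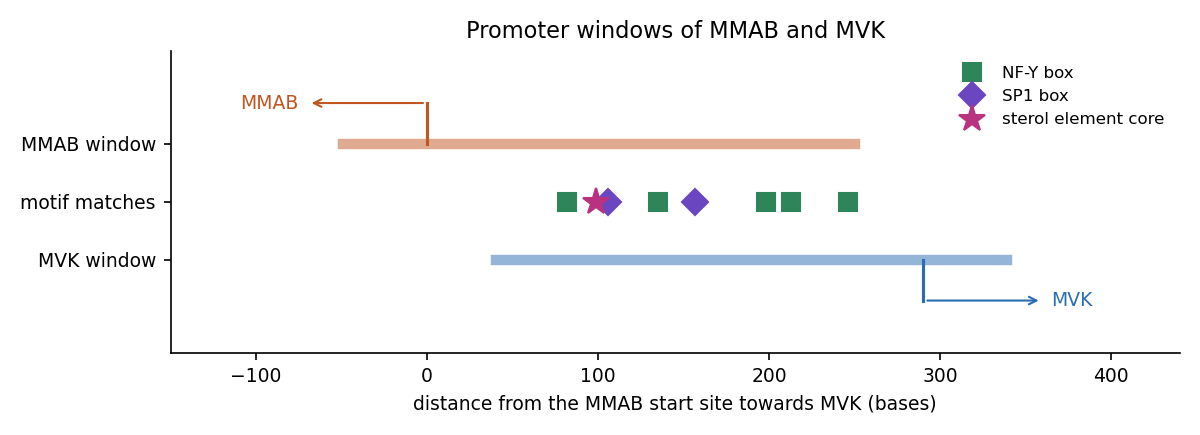
Position of the promoter windows of MMAB (orange bar) and MVK (blue bar) and of the motif matches, with the distance in bases from the MMAB start site towards MVK on the horizontal axis. Arrows mark the start sites and the direction of transcription. All 5 NF-Y boxes (CCAAT), both SP1 boxes (GGGCGG) and the sterol element core (TCACNCCA) lie where the bars overlap.

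The arrays carried the markers of the labelled cells. All 14 hepatocyte or hepatoma genes examined, among them ALB and APOB, lay above 4.23, the level that bounds the dimmest 40% of probe sets, and 13 lay above 10. The 12 markers of other cells had mean levels between 3.63 and 7.09, and 8 of them lay above 4.23. The mean of the hepatocyte list was 12.81 to 12.82 on control, 12.81 to 12.88 on nLDL and 12.90 to 12.92 on statin arrays. That of the other-cell list was 5.20 to 5.33 on control, 5.25 to 5.29 on nLDL and 5.21 to 5.34 on statin arrays. The control probe sets at the 3′ end of ACTB read 2.13 and 1.92 above those at its 5′ end on the statin arrays, while this gap was 1.54 to 1.64 on the remaining 4, and for GAPDH it was 0.02 to 0.10 on all 6. The part of the ACTB gap, which moves with the statin group, in the differences below was not tested. RNA was measured in bulk, so less RNA per cell and fewer cells with the RNA cannot be told apart.

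MMAB and MVK lay on the same side of control under each treatment. RNA of both genes read lower with nLDL and higher with statin than in control cells at 6 of the 7 probe sets, and at these 6 the pairs of arrays did not overlap in the order nLDL, control, statin. The same order without overlap held for 2.84% of all 54613 probe sets. The seventh, 236686_at of MVK, was the dimmest and did not follow the order.

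The brightest MMAB probe set, 225826_at, read 9.84 and 9.77 on the control arrays, 9.47 and 9.55 on the nLDL arrays and 10.12 and 10.04 on the statin arrays. At 242082_at the values were 7.84 and 7.92 on control, 7.44 and 7.38 on nLDL and 8.31 and 8.38 on statin arrays. At 238975_at they were 7.38 and 7.29 on control, 6.73 and 6.89 on nLDL and 7.79 and 7.81 on statin arrays. All 3 MMAB probe sets therefore put both nLDL arrays lowest and both statin arrays highest. The narrowest gap between groups was 0.19, between the higher control and the lower statin array at 225826_at, and the other 2 probe sets left gaps of 0.39 to 0.41 on either side of the controls.

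The brightest MVK probe set, 36907_at, read 8.84 and 8.90 on the control arrays, 8.62 and 8.59 on the nLDL arrays and 9.19 and 9.04 on the statin arrays. At 204056_s_at the values were 7.81 and 7.80 on control, 7.53 and 7.50 on nLDL and 8.01 and 8.16 on statin arrays. At 215649_s_at they were 7.07 and 7.00 on control, 6.55 and 6.63 on nLDL and 7.28 and 7.47 on statin arrays. These 3 MVK probe sets showed the same order as MMAB, with a narrowest gap of 0.14 between control and statin at 36907_at. The fourth, 236686_at, read 4.82 and 4.91 on control, 4.93 and 5.15 on nLDL and 5.19 and 4.87 on statin arrays. Its groups overlapped, and its mean of 4.98 over the arrays lay close to the median of all probe sets, with 51.5% of them below it, against 72.2% to 92.5% for the other 6. Over the 6 ordered probe sets, replicate arrays of a group differed by 0.02 to 0.19.

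**Figure D2:**
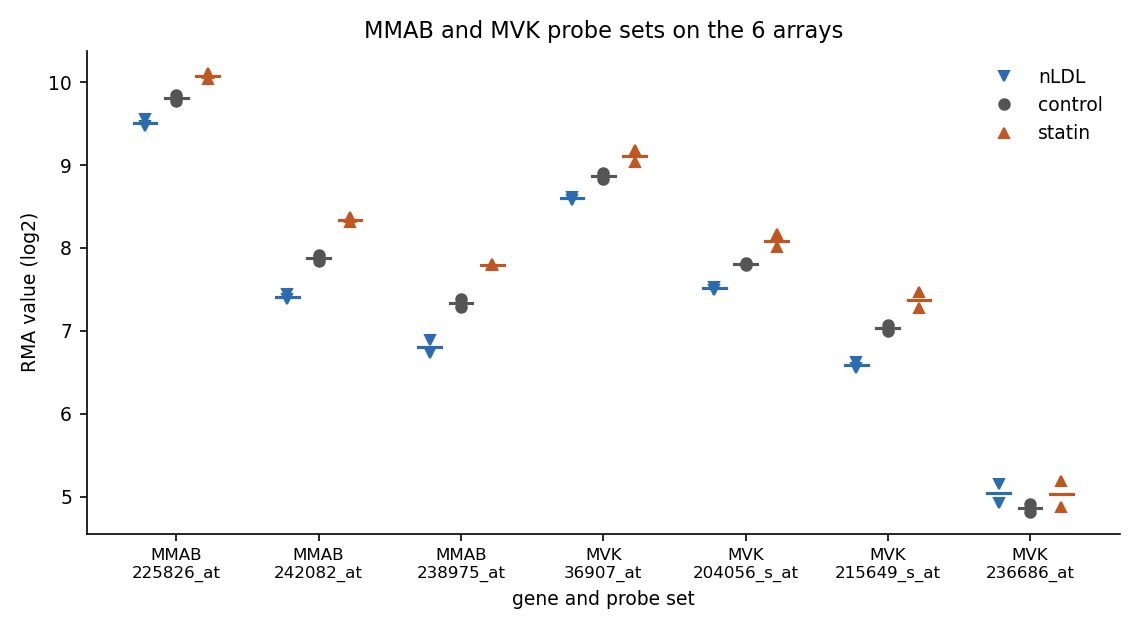
RMA values (log2) of the 7 probe sets on the 6 arrays, with gene and probe set on the horizontal axis, 1 symbol per array and short lines at the group means (n = 2). At all probe sets but MVK 236686_at, both nLDL arrays lie below both controls and both statin arrays above them.

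The first comparison asked whether RNA of the pair changes when the statin is given. MMAB rose with statin at 2 of its 3 probe sets, and no MVK probe set passed the test. At 242082_at MMAB was higher by 0.46 (SE 0.08; limma adjusted p = 0.0348), from 7.88 ± 0.06 to 8.34 ± 0.05 (SD, n = 2 each), and at 238975_at by 0.46 (SE 0.09; limma adjusted p = 0.0459), from 7.34 ± 0.06 to 7.80 ± 0.01 (SD, n = 2 each). These are 1.38-fold changes. The brightest MMAB probe set, 225826_at, differed by 0.27 (SE 0.08; limma adjusted p = 0.144). For MVK the differences were 0.24 at 36907_at, 0.28 at 204056_s_at, 0.34 at 215649_s_at and 0.17 at 236686_at, with limma adjusted p of 0.191, 0.144, 0.117 and 0.535. In all, 2 of the 7 probe sets were called higher, against 0.956% of all probe sets. Both calls were lost in each fit that left out 1 of the 6 arrays, where the lowest adjusted p was 0.0708 at 242082_at and 0.0702 at 238975_at, and the differences of both stayed between 0.42 and 0.51. With 2 arrays against 2, the smallest two-sided p of an exact permutation test is 0.333, and that test was not used.

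The second comparison asked whether added nLDL changes the pair. Neither MMAB nor MVK passed the test, and neither did any other probe set: 0% of all were called lower, with a smallest limma adjusted p of 0.326. The MMAB probe sets lay below control by 0.30 at 225826_at, 0.47 at 242082_at and 0.53 at 238975_at. MVK lay below control by 0.27 at 36907_at, 0.29 at 204056_s_at and 0.44 at 215649_s_at, while 236686_at lay 0.18 above. SEs of the 6 lower values were 0.08 to 0.09, and each had a limma adjusted p of 0.798. At an unadjusted p under 0.05 the 6 probe sets were lower, against 2.66% of all, with unadjusted limma p between 0.00048 and 0.0167. In linear terms the 6 differences were 1.20-fold to 1.44-fold. The nLDL and statin differences share the control arrays, so their opposite signs are not independent of each other.

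The third comparison set the statin-treated against the nLDL-treated cells. MMAB and MVK each rose at 3 probe sets, 6 of 7 in all, against 1.04% of all probe sets called higher. MMAB was higher with statin than with nLDL by 0.57 (SE 0.08; limma adjusted p = 0.0210) at 225826_at, by 0.93 (SE 0.08; limma adjusted p = 0.00470) at 242082_at and by 0.99 (SE 0.09; limma adjusted p = 0.00509) at 238975_at. MVK was higher by 0.51 (SE 0.09; limma adjusted p = 0.0328) at 36907_at, by 0.57 (SE 0.08; limma adjusted p = 0.0229) at 204056_s_at and by 0.78 (SE 0.09; limma adjusted p = 0.0123) at 215649_s_at. The differences of the 6 probe sets amount to 1.42-fold at 36907_at up to 1.99-fold at 238975_at. At 236686_at the difference was -0.01 (limma adjusted p = 0.983). The count of 6 became 3 when either control array was left out, 0 and 1 when nLDL array 1 or 2 was left out, and 3 and 2 when statin array 1 or 2 was. The sign of the 6 differences could not change in these fits, since the statin and nLDL arrays did not overlap. In these fits the differences ran from 0.44 to 1.07.

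**Figure D3:**
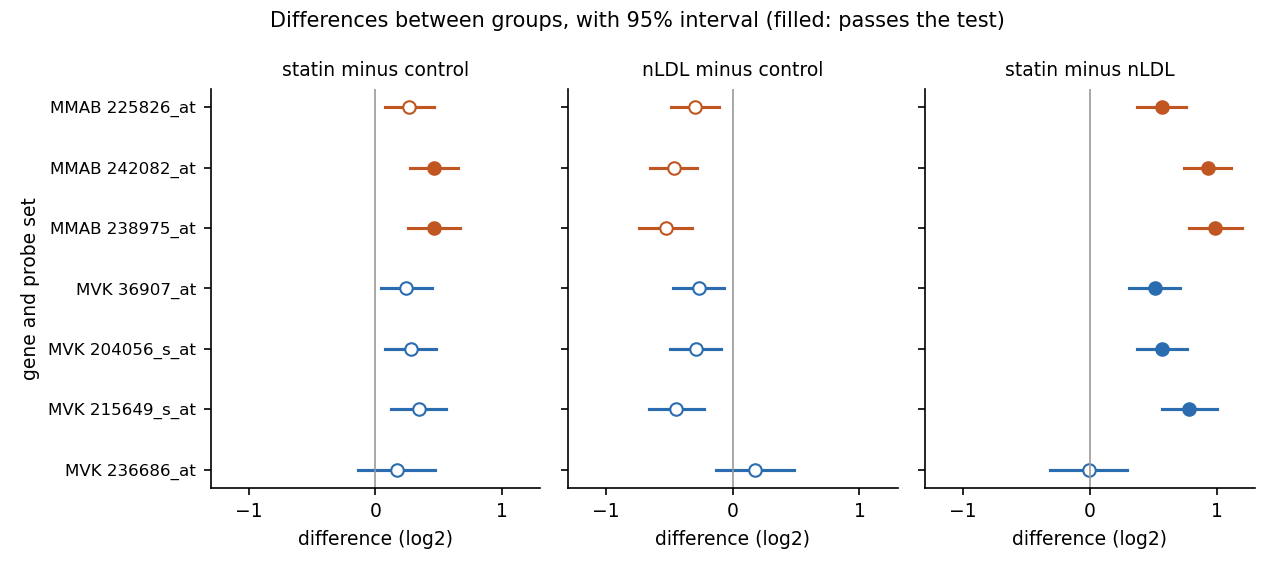
Differences between group means (log2, horizontal axis) of the 7 probe sets in the 3 comparisons, with lines for the 95% interval of the limma fit, orange for MMAB and blue for MVK, and filled points where the adjusted p is under 0.05. With statin against control 2 points are filled, with nLDL against control 0, and with statin against nLDL 6.

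When the log2 values of all probe sets of a gene were averaged first and fitted over 21299 genes, MMAB was higher with statin than in control by 0.40 (SE 0.06; limma adjusted p = 0.0139) and higher than with nLDL by 0.83 (SE 0.06; limma adjusted p = 0.00158). MVK, whose mean includes 236686_at, differed by 0.26 (SE 0.06; limma adjusted p = 0.0509) and was higher than with nLDL by 0.46 (SE 0.06; limma adjusted p = 0.00893). In this fit 6.61% of genes changed in either direction with statin against control and 5.96% with statin against nLDL. With nLDL against control MMAB stood at -0.43 and MVK at -0.21, with limma adjusted p of 0.356 and 0.703. The averaged values thus put MMAB past the threshold with statin and MVK just short of it.

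The size of the response of the genes depended on the probe sets. At the brightest probe sets, MMAB changed from the control mean by -0.34 and -0.26 on the nLDL arrays and by 0.31 and 0.23 on the statin arrays, and MVK by -0.25 and -0.28 and by 0.32 and 0.17. The MMAB change minus the MVK change was -0.09 and 0.03 on nLDL and -0.01 and 0.06 on statin arrays. On the controls it was 0.07 and -0.07. With the mean of all probe sets of each gene it was -0.23 and -0.22 on nLDL and 0.12 and 0.16 on statin arrays. On the controls this was 0.02 and -0.02. The 2 control values are 1 replicate difference mirrored about its own mean, so they do not measure a spread. Averaged over its probe sets, MMAB thus lay further from control than MVK on each of the 4 treated arrays. This MVK mean includes 236686_at, which did not follow the others. Without it the gap was -0.13 and -0.07 on nLDL and 0.14 and 0.08 on statin arrays. It narrowed on every treated array but statin array 1, where it went from 0.12 to 0.14. No test is given for 2 arrays against 2.

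Across the 6 arrays the pair co-varied. The brightest probe sets gave a Pearson r of 0.969 (exact permutation p = 0.00972 over 720 pairings, two-sided) and a Spearman rho of 0.886 (exact permutation p = 0.0333). Of 12 MMAB by MVK pairs of probe sets, the 9 without 236686_at had r between 0.946 and 0.987 and rho between 0.83 and 1.00, with Benjamini-Hochberg adjusted exact permutation p of 0.0238 to 0.0241 for r and 0.0333 to 0.0778 for rho, of which 4 of the 9 were not under 0.05. For the brightest pair the adjusted exact p was 0.0238 for r and 0.05 for rho. The probe sets of these 9 pairs all had the order nLDL, control, statin without overlap, which by itself keeps rho at 0.83 or above. The pairings also moved arrays across treatments, so these p restate the shared order and test nothing beyond it. The 3 pairs with 236686_at had r between -0.07 and 0.05. Within a gene, the MMAB probe sets correlated with each other at r of 0.968 to 0.994. The 3 ordered MVK probe sets did so at 0.913 to 0.991. Between the genes the same probe sets had r of 0.946 to 0.987. All of them share the order of the groups, so a similarly high r within and between the genes is not a separate result. The fourth MVK probe set had r of -0.18 to 0.09 with the others of its gene.

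The co-variation follows the treatments. The arrays fall in 3 groups that do not overlap for either gene and share 1 normalization, and with 1 difference between replicate arrays per group a relation apart from treatment was not tested. Between the replicate arrays of a group, the brightest MMAB and MVK probe sets moved the same way in 1 of 3 groups: from array 1 to array 2 MMAB changed by -0.07 in control, 0.08 in nLDL and -0.08 in statin, and MVK by 0.07, -0.03 and -0.15. Without nLDL array 1 and statin array 1, the arrays farthest from the MMAB median, r was 0.952 over 4 arrays (exact permutation p = 0.125).

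**Figure D4:**
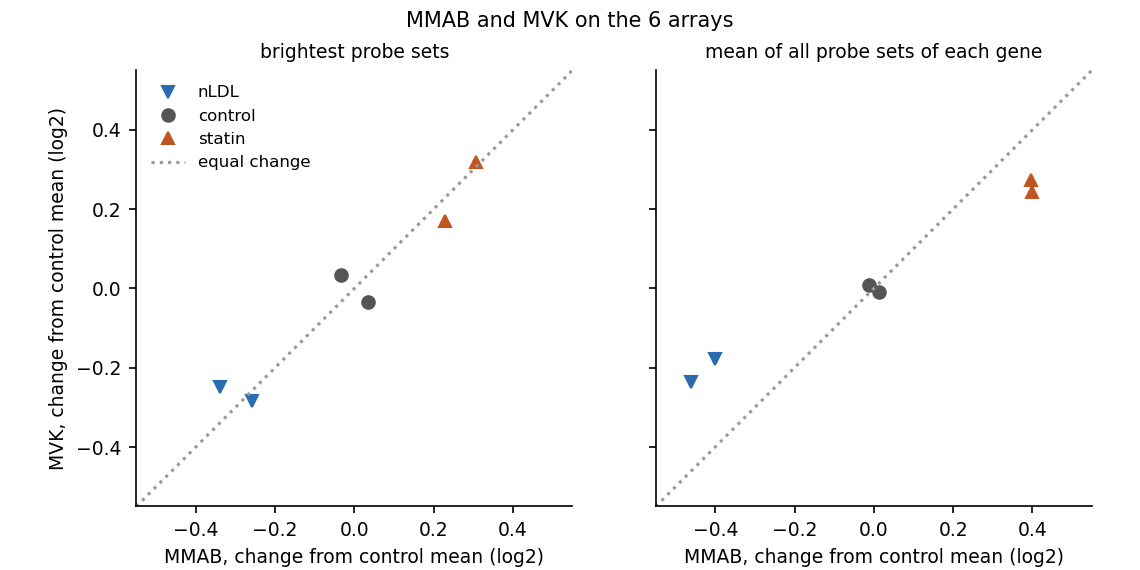
Change from the control mean (log2) of MMAB on the horizontal and MVK on the vertical axis, 1 symbol per array, for the brightest probe sets (left) and the mean of all probe sets of each gene (right), with a dotted line of equal change. At the brightest probe sets the arrays lie along the line (r = 0.969), and with the gene means the nLDL and statin arrays lie on the side where MMAB changed more.

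Many other genes showed this profile. Among 15278 other genes above the dimmest 40% of probe sets, MVK ranked 58th by r with MMAB and MMAB ranked 45th by r with MVK, and 117 and 97 genes reached an r of at least 0.95. The 8 genes closest to the mean profile of the pair over the 6 arrays were IRAK2, TC2N, EEF2, KLF7, BAG1, EBP, AGR2 and CAMK2N1, with r from 0.993 upwards. EBP encodes a sterol isomerase of cholesterol synthesis, and IRAK2 a kinase of interleukin-1 and Toll-like receptor signalling. Likeness of profile says nothing of size, since the statin minus nLDL difference of these 8 ran from 0.08 for EEF2, the translation elongation factor, to 0.56 for AGR2. Of the 8, KLF7, EBP and AGR2 passed the test for statin against nLDL, where 1.04% of all probe sets were called higher. The 8 were picked by their profile on these same arrays, so these calls are not a separate result.

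The genes beside the pair are given by position. Of the 6 nearest protein-coding genes on each side, 0 of the 12 had its arrays in the order nLDL, control, statin without overlap, which is near the share of 2.84% over all probe sets, and 0 rose in any comparison at the brightest probe set, near the shares of 0.956% and 1.04% called higher. UBE3B, which encodes a ubiquitin ligase and lies next to MMAB, read 8.63 and 8.56 on control, 8.52 and 8.57 on nLDL and 8.72 and 8.76 on statin arrays, so that its nLDL and control arrays overlapped narrowly. It differed by 0.14 with statin, by -0.05 with nLDL and by 0.20 between them, with limma adjusted p of 0.368, 0.969 and 0.267. FAM222A, next to MVK, differed by -0.05, -0.03 and -0.02, with limma adjusted p of 0.813, 0.994 and 0.944. UNG, which encodes the uracil-DNA glycosylase and lies 6 genes away on the MMAB side, fell by 0.46 with statin against control (limma adjusted p = 0.0357) and by 0.45 against nLDL (limma adjusted p = 0.0397), when 1.66% and 1.41% of all probe sets were called lower. The other 11 ran from -0.26 to 0.17 with statin against control, from -0.17 to 0.28 with nLDL against control and from -0.23 to 0.20 between the treatments. MYO1H, which holds the highest nLDL value, had a mean level of 3.12, below 4.23.

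**Figure D5:**
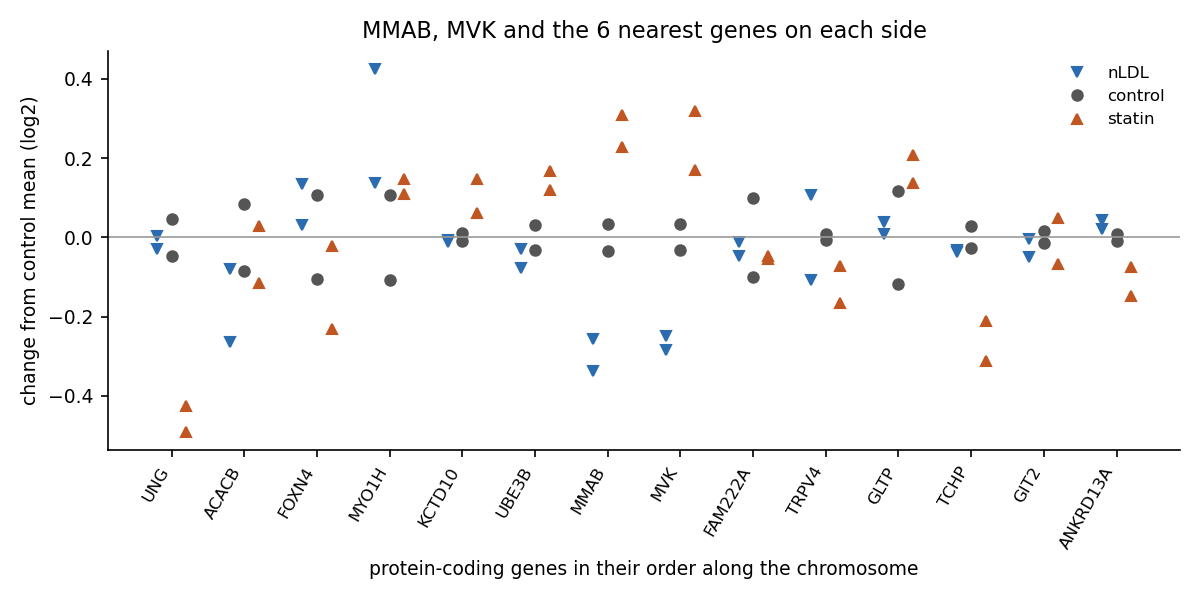
Change from the control mean (log2) on each of the 6 arrays for MMAB, MVK and the 6 nearest protein-coding genes on either side, in their order along the chromosome, each gene at its brightest probe set. For MMAB and MVK both nLDL arrays lie below and both statin arrays above the controls, and for none of the 12 neighbours do the arrays fall in that order without overlap.

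MVK belongs to the mevalonate pathway, several of whose genes rose between nLDL and statin. Of 10 measured genes of the mevalonate steps, MVK included, 2 rose with statin against control (0.956% of all probe sets did) and 6 with statin against nLDL (1.04% of all), and their median differences were 0.25 and 0.56, against 0.02 and 0.01 over all probe sets. With nLDL against control none passed, and the median was -0.30, against 0.00 over all. IDI1, the isopentenyl diphosphate isomerase, rose by 0.48 (limma adjusted p = 0.0283) with statin against control and by 0.85 (limma adjusted p = 0.00509) against nLDL. HMGCS1, which makes HMG-CoA, rose by 0.90, FDPS, the farnesyl diphosphate synthase, by 0.59 and ACAT2, which joins acetyl-CoA units, by 0.55, all against nLDL, with limma adjusted p of 0.0229, 0.0138 and 0.0185. The next enzymes after MVK, PMVK and MVD, differed by 0.24 and 0.58 with limma adjusted p of 0.242 and 0.0549. By the brightest probe set, MVK with 0.51 was 7th of the 10 genes in this comparison, above PMVK, GGPS1 (0.14) and IDI2 (-0.10), while its probe set 215649_s_at read 0.78. Differences between genes were not tested.

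Of 13 listed genes of the steps from squalene to cholesterol, CYP51A1 had no probe set under its symbol alone and is not counted. Of the other 12, 2 rose with statin against control and 10 against nLDL, when 0.956% and 1.04% of all probe sets did. Their medians were 0.35 and 0.73, against 0.02 and 0.01 over all. TM7SF2, a sterol reductase, rose by 0.63 (limma adjusted p = 0.0260) and SC5D, a sterol desaturase, by 0.44 (limma adjusted p = 0.0457) against control. Against nLDL, the others that rose were FDFT1, SQLE, LSS, MSMO1, NSDHL, HSD17B7, EBP and DHCR7, by 0.44 (EBP) to 0.92 (DHCR7). Among 7 regulators of sterol metabolism, 1 rose with statin against nLDL (1.04% of all probe sets did), and the median was 0.22, against 0.01 over all. This was INSIG1, which holds SREBP in the endoplasmic reticulum, with 1.42 (limma adjusted p = 0.00355). SREBF2, which encodes SREBP2, differed by 0.29 (limma adjusted p = 0.106) and SREBF1 by 0.22 (limma adjusted p = 0.245). None of the 7 passed against control, where INSIG1 differed by 0.56 with statin (limma adjusted p = 0.0536).

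Among the genes that work with MMAB, its 7 closest partners, MMAA, MMUT, MMACHC, MMADHC, MCEE, PCCA and PCCB, which handle cobalamin in or on the way to the mitochondrion or carry propionate carbon to succinyl-CoA, included 0 that rose in the 3 comparisons and 0 that fell, which is near the shares over all probe sets (0.956% and 1.66% with statin against control). Their differences ran from -0.14 to 0.21 with statin against control, from -0.06 to 0.13 with nLDL against control and from -0.17 to 0.20 between the treatments, where MMAB at its brightest probe set had 0.27, -0.30 and 0.57. MMUT, the mutase that uses the product of MMAB, differed by 0.15, 0.04 and 0.11, with limma adjusted p of 0.396, 0.987 and 0.589. MMAA, another of these partners, differed by 0.21, 0.13 and 0.08, with limma adjusted p of 0.271, 0.894 and 0.719.

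Of all 18 genes of cobalamin uptake and handling, MMAB included, 1 rose with statin against control and 3 against nLDL, where 0.956% and 1.04% of all probe sets were called higher, with medians of 0.09 in both, against 0.02 and 0.01 over all. The one called against control was TCN1, a cobalamin-binding protein, which read 3.60 and 3.41 on control, 3.59 and 3.78 on nLDL and 4.47 and 4.56 on statin arrays (limma adjusted p = 0.00881 against control and 0.0138 against nLDL). Its control and nLDL values lie below 4.23, the bound of the dimmest 40%, so the size of its difference is not read. Against nLDL, AMN, part of the intestinal receptor for cobalamin bound to intrinsic factor, rose by 0.59 (limma adjusted p = 0.0346) beside MMAB. Of 14 genes from propionate to succinyl-CoA, none passed, with medians of 0.03, 0.01 and 0.04 in the 3 comparisons. The lists and the members were compared by counts and medians only.

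Of 7 genes for factors known to act at sterol-responsive promoters, 5 lay below control with statin, and the median was -0.20, against 0.02 over all probe sets. NFYA, a subunit of NF-Y, was the 1 that rose, by 0.55 (limma adjusted p = 0.0221) with statin against control and by 0.62 (limma adjusted p = 0.0148) against nLDL. Over all probe sets, 0.956% and 1.04% were called higher in these comparisons. The other subunits, NFYB and NFYC, differed by -0.35 and -0.05 against control, with limma adjusted p of 0.0666 and 0.815, SP1 by 0.09 (limma adjusted p = 0.611), and SP3, CREB1 and YY1 by -0.33, -0.27 and -0.20, with limma adjusted p of 0.145, 0.162 and 0.283. With nLDL against control the values of NFYA, NFYB, NFYC and SP1 were -0.07, 0.02, -0.02 and 0.01, and none passed. Any link between these RNA levels and MMAB or MVK was not tested.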

How the data were processed

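RNA of Huh7 cells was hybridised to Affymetrix U133 Plus 2.0 arrays. The labels give 3 groups of 2 replicates, and the methods call them biological replicates. Normalization by the authors was done in GeneSpring GX 11.5, and the deposited log2 values are RMA values per probe set, which enter no genome build. Array values carry no read depth, so the number of arrays limits the precision, and array medians were 4.84 to 4.91. A second deposited table held 6 value columns that match no sample label. They were not used as samples, and only the gene annotation of that table was taken. Of 54675 probe sets, 62 controls were left out.

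Group means of all 6 arrays were fitted with limma 3.58.1 in R 4.3.3 (lmFit, eBayes, two-sided; 3 residual and 4.08 prior degrees of freedom), with Benjamini-Hochberg adjustment over 54613 probe sets and a threshold of 0.05. Code was tested on simulated data. Correlations used scipy 1.17.1 with Python 3.11.15. Entrez numbers were looked up in RefSeq (GRCh38.p14) to bring symbols up to date, which was possible for 42702 probe sets. Promoter sequences were matched by symbol, 2 of 2, and letters were searched on both strands.

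All member probe sets were named, with fixed partners, list members that pass, the 6 nearest genes on each side and the 8 genes of most similar profile. A gene stands at its probe set of highest mean with 1 symbol. The members and the lists (mevalonate, squalene to cholesterol, sterol regulators, promoter factors, cobalamin, propionate, hepatocyte and other-cell markers) were chosen with earlier results of these data known. Some genes that these rules name are not reported here. Alternatives were quantile normalization, median centring, leaving out the dimmest 40% of probe sets, a trended robust prior, the compared groups alone, the replicate number as a block, the mean over probe sets, each array left out, and the methods' test (unpaired, two-sided, p of 0.05 and fold of 1.1, and after adjustment).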

Additional observations from a re-analysis of the deposited data

How the results depend on the processing

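The 6 ordered probe sets of MMAB and MVK kept their sign in all 3 comparisons under every alternative run. Of these alternatives, only quantile normalization and median centring could have changed a sign. The others leave the differences as they were or leave out 1 array from groups that do not overlap. Calls of the 6 probe sets did not hold as well as their signs. With statin against control, the count of 2 of 7 was 1 after median centring, 6 with a trended robust prior, 0 with the compared groups alone and 0 by the methods' test after adjustment. With statin against nLDL, 6 of 7 became 3 with the compared groups alone and 0 by the adjusted methods' test. With nLDL against control, 0 of 7 became 2 with the trended robust prior and 6 by the methods' test at its own threshold. Leaving out 1 array gave 0 of 7 throughout for statin against control, and 0 to 3 for statin against nLDL. Fits without an array leave a group with 1 array, whose spread is taken from the other groups, and have fewer residual degrees of freedom.

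Over all probe sets, 1429 were called with statin against control, 0 with nLDL against control and 1334 with statin against nLDL. Without the dimmest 40% of probe sets the counts for statin against control and against nLDL were 2745 and 2367. With the trended robust prior the 3 counts were 4954, 58 and 4464, and by the methods' test at its own threshold 6191, 1982 and 5100. With the compared groups alone those 2 counts were 607 and 458, and by the adjusted methods' test 0 and 2. Without 1 array the count ran from 45 to 607 with statin against control and from 45 to 458 with statin against nLDL. The cause of these shifts was not tested.

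With the replicate number as a block, 0 of 7 member probe sets and 820 of all passed with statin against control, 0 and 0 with nLDL against control, and 5 and 909 with statin against nLDL. The labels number the arrays, but deviations of same-numbered arrays correlated at 0.05, 0.02 and 0.09 across the 3 pairs of groups, so the numbers were not taken as pairs.

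The r of 0.969 between the pair was 0.0523 when 236686_at stood for MVK, -0.0691 and -0.0186 when 242082_at or 238975_at also stood for MMAB, and 0.952 (exact permutation p = 0.125) without the 2 arrays farthest from the MMAB median. The difference of 236686_at in statin against nLDL, -0.01, ranged from -0.17 without statin array 1 to 0.15 without statin array 2, and was 0.10 without nLDL array 2. The mean MMAB minus MVK change over all probe sets, -0.22 on nLDL and 0.14 on statin arrays, was -0.0967 and 0.11 without 236686_at in the MVK mean, a setting chosen after seeing the data.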
